A study of Vitis vinifera with 54 samples.

Results

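GRIP4 (NCBI Gene 100232882), GRIP22 (100233091) and GRIP61 (100232890) are grape ripening-induced protein genes, and their levels were followed in Chardonnay flesh from the growing to the mature berry. The 3 genes were taken by their gene numbers out of the 25133 genes of the table, and each had a value in all 54 libraries. They were chosen by the size of their difference between the enlargement and color transition periods in these same libraries, and that difference is described here without a test. Tests are given only for the later step, from color transition to maturity, and for differences among zones. Those that use the enlargement or color transition libraries share values with that choice and are not independent of it.

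Chardonnay is a white wine variety of Vitis vinifera L. Flesh without skin or seeds was sampled in 6 ecological zones of Ningxia (HJZ, ZHYS, CC, XG, XLS and HSB) at the enlargement period (E, 40 days after early flowering, DAP), the color transition period (V, 80 DAP, labelled veraison) and the maturity period (M, 120 DAP). Each of the 18 groups, named by stage and zone as in E-HJZ, had 3 biological replicates of 15 berries. All groups were of the same variety and none carried a treatment. The sources used here do not say how many vineyards stand for a zone. Soil, climate and management cannot be told apart, and berries sampled on the same day after flowering need not have been equally ripe.

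A grape berry grows in phases separated by a pause. Veraison, the start of ripening, follows that pause. At that point the berry softens, takes up sugar and water, and turns on a set of transcripts that are scarce in the hard green fruit. The GRIP genes were named from complementary DNAs found at much higher levels in ripening than in unripe berries, and many of the encoded proteins resemble cell wall or stress proteins. GRIP22 belongs to the kiwellin family, first known as abundant proteins of ripe kiwifruit. The gene table used for symbols gives grip3 as another name of GRIP4.

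The values are TPM, in which counts are corrected for gene length and each library sums to 1000000. A TPM is thus a share of the measured transcripts and can be compared between genes, but the sequencing depth behind it is unknown. The 100 most abundant genes of a library held from 29.1% (mean of E-HSB) to 61.4% (mean of E-HJZ) of the total. Each library was correlated over all genes with the mean of each group, itself left out. By this measure, 51 of the 54 libraries lay closest to their own group. The exceptions were the 3 libraries of V-XLS. Replicates 1 and 3 lay closest to the mean of M-XLS (both r = 0.994, against 0.989 and 0.978 for their own group). Replicate 2 lay closest to that of V-XG (r = 0.982, against 0.959 for its own group). For replicates 1 and 3 the own-group mean included replicate 2, so these values do not compare replicates 1 and 3 with each other.

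GRIP4 was far from the leading transcripts of the flesh at E and was the most abundant of all 25133 genes at M in every zone. Its mean over the 6 zones was 120 ± 111 TPM (SD of the zone means, n = 6) at E, 30661 ± 10067 TPM at V and 54529 ± 8412 TPM at M. The spread among zones narrowed at each step, from a highest zone mean 24.4 times the lowest at E to 2.82 times at V and 1.48 times at M.

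At E, the GRIP4 levels of replicates 1, 2 and 3 were 303, 290 and 201 TPM in E-HSB and 301, 248 and 198 TPM in E-XG. They were 152, 61.9 and 126 TPM in E-HJZ, 44.1, 59.5 and 35.4 TPM in E-CC, and 38.9, 37.4 and 35.2 TPM in E-XLS. In E-ZHYS they were 8.74, 8.01 and 15.8 TPM. HSB and XG overlapped at the top, CC and XLS overlapped lower down, and every ZHYS library lay below every library of the other zones. The rank of GRIP4 among all genes by group mean ran from 405 in E-XG to 7259 in E-ZHYS.

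At V, the GRIP4 levels were 50870, 26636 and 50530 TPM in V-XG and 40882, 41504 and 36585 TPM in V-HJZ. They were 39409, 22450 and 34287 TPM in V-XLS, 28709, 28301 and 32833 TPM in V-CC, and 25670, 21014 and 26802 TPM in V-ZHYS. In V-HSB they were 10105, 15667 and 19646 TPM, and all 3 lay below every library of the other zones. GRIP4 was already the most abundant gene in V-XG, V-HJZ and V-XLS, ranked 2 in V-CC and 3 in V-ZHYS, and ranked 4 in V-HSB. Replicate 2 of V-XG and replicate 2 of V-XLS were far below the other libraries of their groups, which made these the groups with the largest SD (13894 TPM and 8698 TPM).

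At M, the GRIP4 levels were 72192, 61765 and 68127 TPM in M-HSB, 61182, 66052 and 52443 TPM in M-XG, and 64975, 47652 and 56517 TPM in M-ZHYS. They were 49440, 57816 and 47976 TPM in M-CC, 44482, 44329 and 49860 TPM in M-HJZ, and 48091, 45652 and 42973 TPM in M-XLS. Each zone overlapped its neighbour in this order. HSB, the lowest zone at V, had the highest mean at M.

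GRIP22 was scarce at E, reached its highest level at V in 5 zones and at M in HSB, and was the least abundant of the 3 genes in every V and M library. Its mean over the zones was 27.6 ± 39.2 TPM at E, 4700 ± 3553 TPM at V and 2166 ± 582 TPM at M (SD of the zone means, n = 6). The highest zone mean was 64.3 times the lowest at E, 15.6 times at V and 1.81 times at M.

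At E, the GRIP22 levels were 127, 86.9 and 76.3 TPM in E-HSB and 72.7, 32.7 and 54.2 TPM in E-HJZ. In E-XLS they were 8.82, 5.0 and 5.52 TPM, in E-XG 4.92, 4.06 and 4.87 TPM, in E-CC 3.32, 3.18 and 2.75 TPM, and in E-ZHYS 1.33, 0.26 and 2.92 TPM. HSB and HJZ stood apart from the other zones, every one of whose libraries lay below 10 TPM. The zones with the lowest levels at E, ZHYS and CC, were the zones with the highest levels at V.

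At V, the GRIP22 levels were 12148, 9666 and 9097 TPM in V-ZHYS and 8290, 6977 and 7618 TPM in V-CC. They were 1871, 6161 and 2241 TPM in V-XLS, 3089, 2802 and 3466 TPM in V-XG, and 3231, 2995 and 2958 TPM in V-HJZ. In V-HSB they were 474, 594 and 914 TPM. XLS, XG and HJZ overlapped, ZHYS and CC lay above them without overlap, and HSB lay below all others. V-ZHYS was the group in which GRIP22 ranked highest among all genes, at rank 10, and V-HSB ranked it 157.

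At M, the GRIP22 levels were 2734, 3125 and 2653 TPM in M-CC, 3138, 2381 and 2782 TPM in M-ZHYS, and 2459, 2375 and 2442 TPM in M-XLS. They were 1729, 1788 and 1860 TPM in M-HJZ, 1483, 1706 and 1637 TPM in M-XG, and 1611, 1595 and 1486 TPM in M-HSB. ZHYS overlapped both CC and XLS, and all libraries of these 3 zones lay above those of the other 3.

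GRIP61 was already abundant at E in 5 zones, so its difference between E and V was the smallest of the 3 genes in those zones. Its mean over the zones was 1169 ± 1115 TPM at E, 18159 ± 7263 TPM at V and 14070 ± 5273 TPM at M (SD of the zone means, n = 6). E-HSB was the exception, with GRIP61 close to 0.

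At E, the GRIP61 levels were 2271, 2563 and 4100 TPM in E-ZHYS, 1907, 2002 and 1807 TPM in E-CC, and 1595, 832 and 1245 TPM in E-HJZ. They were 617, 495 and 464 TPM in E-XLS, 489, 375 and 275 TPM in E-XG, and 0.14, 0.87 and 0.15 TPM in E-HSB. No library of E-HSB came near those of the other zones, and the highest zone mean was 7702 times that of E-HSB. GRIP61 ranked 13 among all genes in E-ZHYS and 18583 in E-HSB. The zones with most GRIP61 at E were not those with most GRIP4: ZHYS was highest for GRIP61 and lowest for GRIP4 and GRIP22, and HSB was lowest for GRIP61 and highest for the other two.

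At V, the GRIP61 levels were 29366, 24775 and 25509 TPM in V-HJZ, 17964, 28054 and 19348 TPM in V-XLS, and 23048, 20736 and 21100 TPM in V-CC. They were 20926, 18160 and 17905 TPM in V-ZHYS, 13424, 14687 and 14263 TPM in V-XG, and 4421, 6481 and 6690 TPM in V-HSB. The first 4 of these zones overlapped with their neighbours, XG lay below them and HSB below XG. The group rank ran from 2 in V-XLS to 12 in V-HSB.

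At M, the GRIP61 levels were 20739, 20791 and 20170 TPM in M-XLS and 18587, 20619 and 18033 TPM in M-CC. They were 14853, 14818 and 13329 TPM in M-ZHYS, 14970, 14074 and 13732 TPM in M-HJZ, 8834, 7906 and 8183 TPM in M-HSB, and 7512, 8005 and 8098 TPM in M-XG. The zones formed 3 pairs whose libraries overlapped within a pair and not between pairs.

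**Figure D1:**
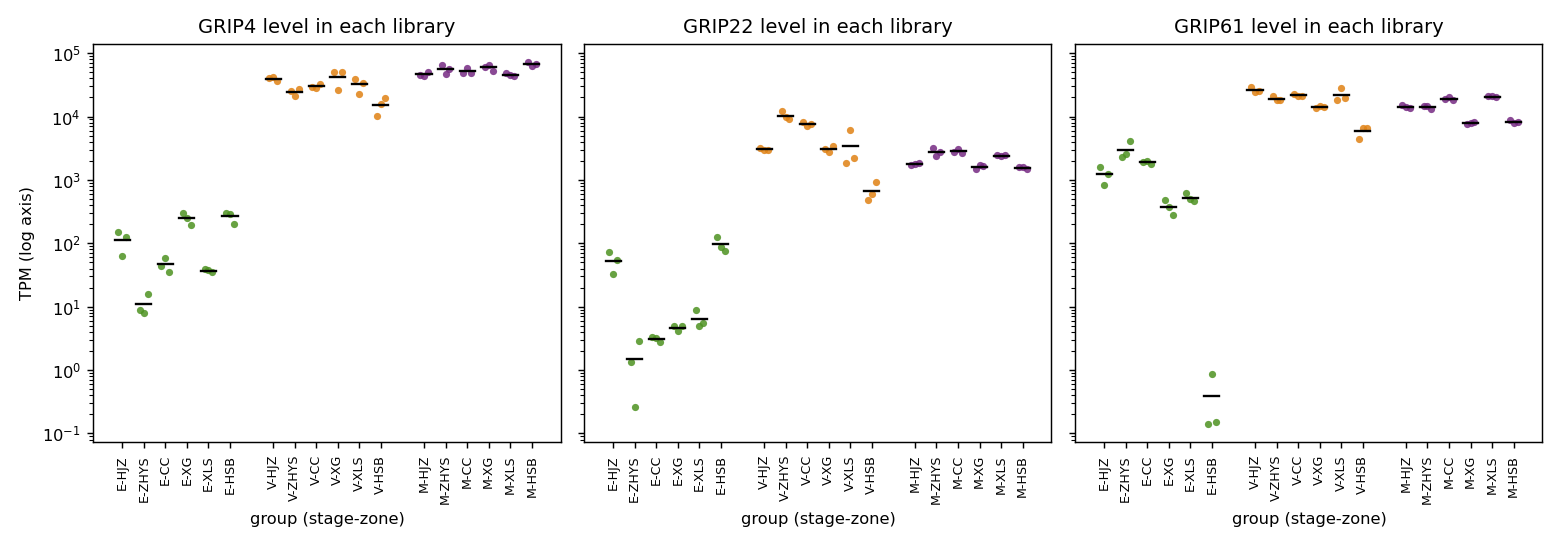
TPM of GRIP4, GRIP22 and GRIP61 (log axis) in each of the 54 libraries by stage and zone, with points for libraries and a bar for the mean of 3. GRIP4 had zone means of 10.9 to 265 TPM at E and of 45572 to 67362 TPM at M, GRIP22 was lower at M than at V in every zone but HSB, and GRIP61 lay below 1 TPM in the 3 libraries of E-HSB.

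The size of the difference between E and V, the contrast known when the genes were chosen, varied from zone to zone by more than a factor of 10 for each gene. For GRIP4 the mean at V was 2255 times that at E in ZHYS, 862 times in XLS, 647 times in CC, 350 times in HJZ, 171 times in XG and 57.2 times in HSB. For GRIP22 it was 6854 times in ZHYS, 2474 times in CC, 676 times in XG, 531 times in XLS, 57.6 times in HJZ and 6.84 times in HSB. The ratio in ZHYS was 12960 without replicate 3 of E-ZHYS, and that in XLS was 319 without replicate 2 of V-XLS. For GRIP61 it was 41.5 times in XLS, 37.2 times in XG, 21.7 times in HJZ, 11.4 times in CC and 6.38 times in ZHYS, and in HSB, where the E level was near 0, it was 15166 times, or 40442 times without replicate 2 of E-HSB. ZHYS thus had the largest ratio for GRIP4 and GRIP22 and the smallest for GRIP61, and HSB the reverse. In all 6 zones the libraries of E and V did not overlap for any of the 3 genes.

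On the scale of log2(TPM + 1), which understates differences of low values, the difference from E to V averaged over the zones was 8.63 for GRIP4, 8.24 for GRIP22 and 5.56 for GRIP61. Within zones it ran from 5.8 (HSB) to 11.06 (ZHYS) for GRIP4 and from 2.74 (HSB) to 12.14 (ZHYS) for GRIP22. For GRIP61 it ran from 2.72 (ZHYS) to 12.06 (HSB). With 0.1 in place of 1 as the constant added, the value of GRIP61 in HSB was 13.86 and that of GRIP22 in ZHYS 13.11. With the constant of 1 and HSB left out, the GRIP61 mean was 4.26.

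The zone means of E and V ran in different orders. The zones differed at each of these stages in limma F-tests on log2(TPM + 1) with p adjusted over all genes. The E and V levels also entered the choice of the genes, so these p values only describe. At E the range among zones was 4.52 for GRIP4 (adjusted p = 8.14e-18), 5.4 for GRIP22 (adjusted p = 3.1e-19) and 11.06 for GRIP61 (adjusted p = 5.33e-33). All 3 genes passed, as did 82% of all genes. At V the range was 1.49 for GRIP4 (adjusted p = 5.57e-05), 4 for GRIP22 (adjusted p = 1.54e-13) and 2.2 for GRIP61 (adjusted p = 5.79e-11). Again all 3 passed, as did 78.9% of all genes, so passing was common and the sizes are the measurement here. The range of GRIP4 at V did not pass without HSB (0.75, limma adjusted p = 0.0881) or when only the V libraries were fitted (1.49, limma adjusted p = 0.242).

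At M the zones were closer together. The range was 0.56 for GRIP4, which did not pass (limma adjusted p = 0.383), 0.86 for GRIP22 (adjusted p = 0.0232) and 1.39 for GRIP61 (adjusted p = 2.38e-07), so 2 of the 3 genes passed beside 64.4% of all genes. Between XLS and XG the GRIP61 means at maturity were 20566 and 7871 TPM. For GRIP22 the test did not pass without HSB (0.82, limma adjusted p = 0.0634) or with 0.1 as the constant (0.86, limma adjusted p = 0.152). For GRIP4 it passed after median-of-ratios scaling (0.92, limma adjusted p = 0.015).

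The step from V to M separated the 3 genes. GRIP4 was higher at M than at V in every zone. GRIP22 and GRIP61 had lower means at M in 5 zones and higher means only in HSB. For GRIP61, quantile normalization turned the sign in CC (0.53), ZHYS (0.14) and HSB (-0.19). In that scaling a value depends only on the gene's rank within its library. By group mean GRIP61 ranked 5 at V and 2 at M in CC, 5 and 4 in ZHYS, and 12 and 15 in HSB. These are ranks of group means, not of single libraries, and why the signs turned was not tested. A change was called where limma's adjusted p was below 0.05 and the difference on log2(TPM + 1) exceeded 1 in either direction. As a mean of the 6 zones none of the 3 exceeded 1: the difference was 0.92 for GRIP4 (SE 0.11, limma adjusted p = 4.03e-09), -0.67 for GRIP22 (SE 0.12, adjusted p = 1.05e-05) and -0.31 for GRIP61 (SE 0.09, adjusted p = 0.00216). Of all genes 1.69% rose and 1.81% fell by this rule. Without HSB the GRIP22 difference was -1.07 (limma adjusted p = 5.52e-08) and was called. Without XLS the differences were 0.99 for GRIP4, -0.75 for GRIP22 and -0.36 for GRIP61. With the 6 zone means as the unit of replication, none of the 3 passed, and limma's adjusted p was 0.137 for GRIP4, 0.437 for GRIP22 and 0.46 for GRIP61. Of all 25133 genes only 178 passed this test at any fold, so not passing was common. This fit used no variance trend.

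GRIP4 rose from V to M in HSB, by 2.2 (SE 0.27, limma adjusted p = 5.06e-09), and in ZHYS, by 1.2 (SE 0.27, adjusted p = 0.000404). Its differences in the other zones were below the limit of 1: 0.79 in CC (limma adjusted p = 0.0277), 0.55 in XLS (adjusted p = 0.155), 0.54 in XG (adjusted p = 0.0986) and 0.22 in HJZ (adjusted p = 0.671). The XG difference was 0.23 without replicate 2 of V-XG (limma adjusted p = 0.582), and the XLS difference was 0.31 without replicate 2 of V-XLS (adjusted p = 0.743). The level at V as a share of that at M gives the timing in each zone. It was 85.8% in HJZ, 71.3% in XG, 70.3% in XLS, 57.9% in CC, 43.4% in ZHYS and 22.5% in HSB. HJZ therefore had the largest share of its mature level at V, and HSB the smallest. Replicate 2 of V-XG and replicate 2 of V-XLS, each the lowest of its group, lowered the shares in XG and XLS. The rise in ZHYS was 0.92 after median-of-ratios scaling and 0.96 after quantile normalization, both under the limit. By group mean GRIP4 ranked 3 at V and 1 at M in ZHYS. With only the 6 libraries of a zone in the fit, limma's adjusted p was 0.742 in ZHYS (SE 2.07) and 0.231 in HSB (SE 1.38). The SE was 0.27 in the fit of all libraries, and the V and M libraries overlapped in neither zone. Why the SE of the small fits was wider was not tested.

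From V to M, GRIP22 fell by 1.89 on the log2 scale in ZHYS (SE 0.3, limma adjusted p = 2.52e-06), fell by 1.43 in CC (SE 0.3, adjusted p = 0.000403) and rose by 1.3 in HSB (SE 0.3, adjusted p = 0.00029). The differences were -0.95 in XG (limma adjusted p = 0.00796), -0.77 in HJZ (adjusted p = 0.0572) and -0.29 in XLS (adjusted p = 0.596), all within the limit of 1. As ratios of the means, M was 0.269 times V in ZHYS, 0.372 times in CC and 2.37 times in HSB. The V and M libraries overlapped only in XLS, where replicate 2 of V-XLS, the highest at 6161 TPM, set the direction: without it the difference was 0.24 (limma adjusted p = 0.834). The difference in CC was -0.94 after quantile normalization (limma adjusted p = 0.0135), and in XG the difference passed the limit after median-of-ratios scaling, at -1.16, and without replicate 2 of V-XG, at -1.03.

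GRIP61 was called in none of the 6 zones by this rule. Its differences from V to M were -0.89 in HJZ (SE 0.21, limma adjusted p = 0.00196), -0.84 in XG (adjusted p = 0.000963), -0.4 in ZHYS (adjusted p = 0.129), -0.18 in CC (adjusted p = 0.655), -0.06 in XLS (adjusted p = 0.992) and 0.53 in HSB (adjusted p = 0.031). The ratios of the means ran from 0.537 in HJZ to 1.42 in HSB. As for GRIP22, the V and M libraries overlapped only in XLS, where the difference was 0.14 without replicate 2 of V-XLS (limma adjusted p = 0.943). After median-of-ratios scaling it was called in HJZ (-1.1, limma adjusted p = 0.00011), XG (-1.05, adjusted p = 2.26e-05) and HSB (1.06, adjusted p = 1.38e-05).

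Of the 3 genes, 2 were called in ZHYS, 1 in CC and 2 in HSB, and 0 in HJZ, XG and XLS. Replicates 1 and 3 of V-XLS lay closest to the mean of M-XLS, which limits what the calls in XLS say. Over all genes the share called in either direction was 2.33% in HJZ, 9.18% in ZHYS, 2.81% in CC, 13.4% in XG, 1.23% in XLS and 23.9% in HSB. HSB, where all 3 genes had higher means at M, was therefore also the zone with the largest share of genes called in this step. The median gene moved by -0.21 on the log2 scale in HSB, and among genes with a mean of at least 1 TPM the median moved by -0.44 in HSB and by 0.1 (XLS) to 0.23 (ZHYS) in the other zones. After median-of-ratios scaling, which brought the median over all genes to 0, the HSB differences were 2.74 for GRIP4, 1.83 for GRIP22 and 1.06 for GRIP61.

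The V to M difference itself differed among zones for each gene (limma F-test over 5 contrasts between zones). The range among the zones was 1.98 for GRIP4 (limma adjusted p = 0.00028), 3.19 for GRIP22 (adjusted p = 4.84e-07) and 1.42 for GRIP61 (adjusted p = 0.000487). All 3 passed, beside 74.9% of all genes. HSB was the highest zone in each case. Without it the test no longer passed for GRIP4 (range 0.98, limma adjusted p = 0.252) and GRIP61 (0.84, adjusted p = 0.0707), while for GRIP22 it did.

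**Figure D2:**
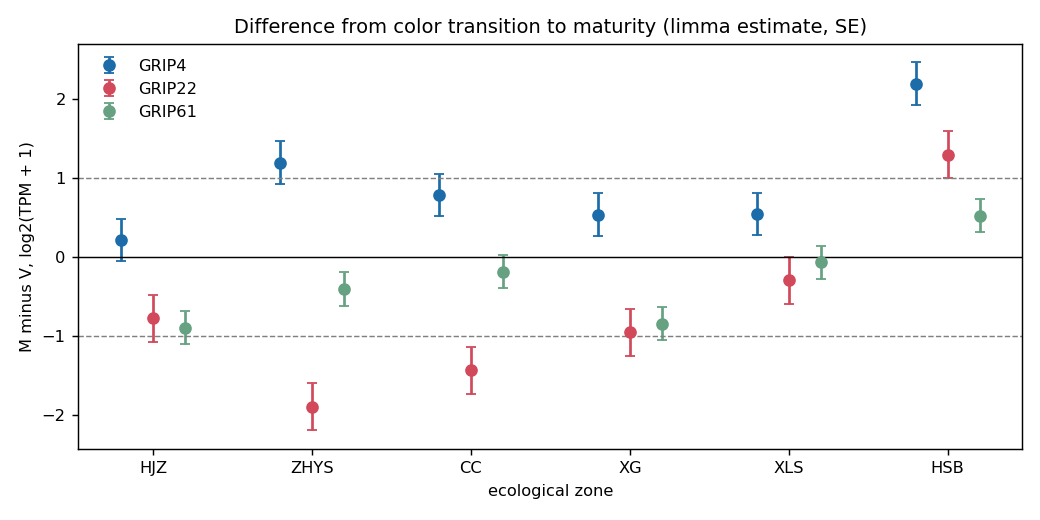
Difference from V to M on log2(TPM + 1) for the 3 genes in each zone, as the limma estimate with its SE (54 libraries in 1 fit), with dashed lines at the limits of 1 and -1. GRIP4 lies above 0 in all 6 zones and above 1 in ZHYS and HSB, GRIP22 runs from -1.89 in ZHYS to 1.3 in HSB, and GRIP61 stays between -0.89 and 0.53.

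Together the 3 genes took up a small share of the measured transcripts at E and several percent of them afterwards. At E their share of all TPM ran from 0.0362% ± 0.00771 (SD, n = 3) in E-HSB to 0.299% ± 0.0988 in E-ZHYS. At V it was 6.93% ± 0.421 in V-HJZ, 5.99% ± 1.37 in V-XG, 5.92% ± 0.286 in V-CC, 5.73% ± 0.176 in V-XLS and 5.38% ± 0.495 in V-ZHYS, against 2.17% ± 0.62 in V-HSB. At M it was 7.72% ± 0.571 in M-HSB, 7.37% ± 0.692 in M-CC, 7.35% ± 0.909 in M-ZHYS, 6.94% ± 0.683 in M-XG, 6.86% ± 0.286 in M-XLS and 6.23% ± 0.28 in M-HJZ. HJZ was thus the only zone in which the mean summed share was lower at M than at V. Its libraries overlapped, with 6.51% to 7.35% at V and 6.02% to 6.55% at M, and the difference was not tested.

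GRIP4 made up most of this share at maturity. It held from 4.56% (M-XLS) to 6.74% (M-HSB) of all TPM at M and from 1.51% (V-HSB) to 4.27% (V-XG) at V. GRIP61 reached 2.65% in V-HJZ and GRIP22 1.03% in V-ZHYS. Of the sum of the 3 genes, GRIP4 held from 0.363% in E-ZHYS to 73.2% in E-HSB at E, from 45.5% (ZHYS) to 71.2% (XG) at V, and from 66.5% (XLS) to 87.2% (HSB) at M. With the totals rescaled after leaving out the 3 genes, no call of theirs changed.

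**Figure D3:**
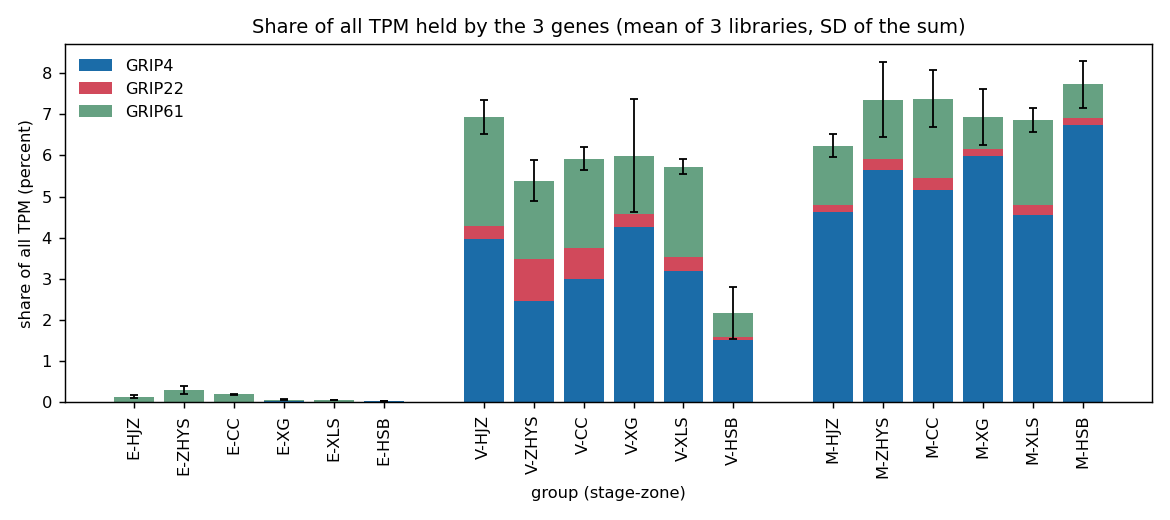
Share of all TPM in percent held by GRIP4, GRIP22 and GRIP61, stacked, as the mean of 3 libraries per group with the SD of the sum as error bars. The sum stays below 0.3% at E, reaches 5.38% to 6.93% at V except in HSB (2.17%), and lies between 6.23% and 7.72% at M.

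The order of the 3 genes changed with the stage. In 15 of the 18 E libraries, all outside HSB, GRIP61 was the highest and GRIP22 the lowest, and in the 3 libraries of E-HSB the order was GRIP4, GRIP22 and GRIP61. GRIP4 came before GRIP61 and GRIP22 last in 17 of the 18 V libraries and in all 18 M libraries. The remaining V library was replicate 2 of V-XLS, in which GRIP61 exceeded GRIP4. GRIP4 was 0.00365 times as abundant as GRIP61 in E-ZHYS and 684 times as abundant in E-HSB, whereas at M the ratio ran only from 2.22 (M-XLS) to 8.11 (M-HSB). At M GRIP4 exceeded GRIP22 by 18.2 (M-CC) to 43.1 times (M-HSB).

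The most abundant gene by group mean at E was LOC100252101 in 5 zones and LOC100266074 in HJZ. At V it was GRIP4 in HJZ, XG and XLS, the thaumatin-like protein gene TL1 in ZHYS, TL3 in CC and still LOC100252101 in HSB. At M it was GRIP4 in all 6 zones.

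Over the 18 group means of log2(TPM + 1), GRIP4 and GRIP22 followed each other (Pearson r = 0.949), while GRIP61 was less like either (r = 0.645 with GRIP4 and 0.599 with GRIP22). These are descriptions over groups that share the step between E and V. Without the E-HSB group, r between GRIP61 and the others was 0.843 and 0.895. Among the 12190 genes with a group mean of at least 10 TPM somewhere, the genes most like GRIP4 were LOC100250600 (r = 0.984), LOC100853472 (0.976), LOC100232838 (0.974), GRIP28 (0.973) and LOC100257711 (0.971). Those most like GRIP22 were LOC100260808 (0.959), LOC100258165 (0.957), LOC100232838 (0.953), LOC100241072 (0.95) and GRIP4 (0.949). Neither list held any of the same genes when TPM without a log or ranks were correlated, and r between GRIP4 and GRIP22 was then 0.334 on TPM and 0.554 on ranks. LOC100250600, the nearest to GRIP4, had zone means of 17.1 to 43.8 TPM at E, 528 (V-HSB) to 1389 TPM at V and 1024 to 1437 TPM at M.

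The genes most like GRIP61 were LOC100245649 (r = 0.992), MRIP1 (0.946), LOC100253748 (0.925) and 2 genes with no symbol in the table, 100853490 (0.923) and 104878655 (0.914). The last 4 shared a low level in E-HSB, and without that group none of them stayed among the 100 most like. LOC100245649 remained the nearest (r = 0.999 without E-HSB) and was the nearest on the other scales too. It lies 3 protein-coding genes away from GRIP61 in the RefSeq gene order of the assembly ASM3070453v1. Its zone means were 0 in E-HSB and up to 271 TPM in E-ZHYS at E, 405 (HSB) to 2043 TPM (HJZ) at V, and 668 (HSB) to 1462 TPM (XLS) at M.

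In the 51 libraries outside E-HSB, GRIP61 exceeded LOC100245649 by a nearly constant factor, with a lowest ratio of 10.3, a median of 12.5 and a highest of 15.1. The median was 11.3 at E, 12.8 at V and 12.8 at M. In the 3 libraries of E-HSB, LOC100245649 was listed at 0 and GRIP61 at 0.14, 0.87 and 0.15 TPM. Whether the counting divided reads between similar copies was not tested, and the pair is uncertain in that respect. Of the 24 genes within 4 places of the 3 genes, 3 neighbours of GRIP61 had no row in the table. Around GRIP22 none of the 8 exceeded 13.8 TPM in any group, with the highest r at 0.79 (LOC100248439). Around GRIP4 only LOC100240909 exceeded 37.0 TPM (1417 TPM in E-HSB, r = -0.082), and the highest r was 0.59 (LOC100261423, at most 17.7 TPM).

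**Figure D4:**
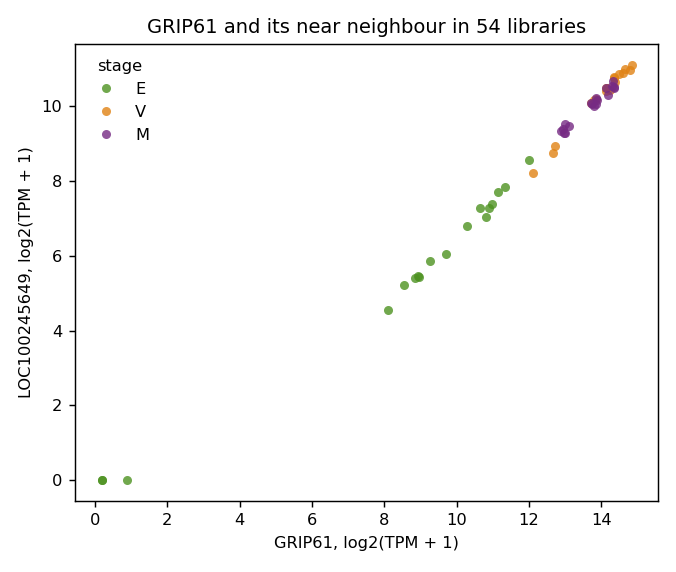
GRIP61 against LOC100245649, both as log2(TPM + 1), in the 54 libraries colored by stage. The points of all 3 stages fall on 1 line with a ratio of 10.3 to 15.1 in TPM, apart from the 3 libraries of E-HSB at the lower left, where LOC100245649 is at 0.

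The other 8 genes of the table with a GRIP symbol or synonym gave the setting for these levels. From E to V as a mean of the zones, 4 of the 8 rose and 0 fell by the same rule (limma adjusted p below 0.05 and a log2 difference above 1), beside 5.89% of all genes that rose and 7.36% that fell. Their median difference was 1.47, against -0.02 over all genes. The rises were 4.4 for GRIP28, which the gene table also names PMEI (the abbreviation for a pectin methylesterase inhibitor), 3.05 for MRIP1 (grip15), 2.67 for GRIP32 and 2.12 for GRIP31. GRIP58, GRIP68, GRIP21 and GRIP55 had differences of 0.82, 0.69, 0.65 and 0.07 and were not called. The 4.4 of GRIP28 lay below the 5.56 of GRIP61 but above the 4.26 that GRIP61 had without HSB.

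From V to M, 0 of the 8 rose and 1 fell, beside 1.69% of all genes that rose and 1.81% that fell. The median was 0.01 against 0 over all genes. GRIP68 fell by 1.77 (SE 0.17, limma adjusted p = 1.68e-11) and had a lower mean at M in all 6 zones. In XLS this rested on replicate 2 of V-XLS, with 1166 TPM, since replicates 1 and 3 held 106 and 99.3 TPM against 125, 97.8 and 113 TPM in M-XLS. Its zone means ran from 405 to 933 TPM at V and from 69.0 to 241 TPM at M. Within HSB, the differences from V to M were 1.38 for GRIP32, 1.36 for MRIP1, 1.26 for GRIP28 and 0.9 for GRIP31. GRIP4 had 2.2 there. The others had 0.51 (GRIP21), 0.1 (GRIP58), -0.04 (GRIP55) and -2.55 (GRIP68, which had -2.78 in XG). Of all genes 23.9% were called in this step in HSB. Like GRIP61, MRIP1 was far lower in E-HSB (30.8 ± 8.04 TPM, SD, n = 3) than in the other zones at E, whose means ran from 1229 to 6178 TPM. MRIP1 was also the next most abundant of the GRIP genes after GRIP4 at maturity, with a mean over the zones of 17238 TPM.

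**Figure D5:**
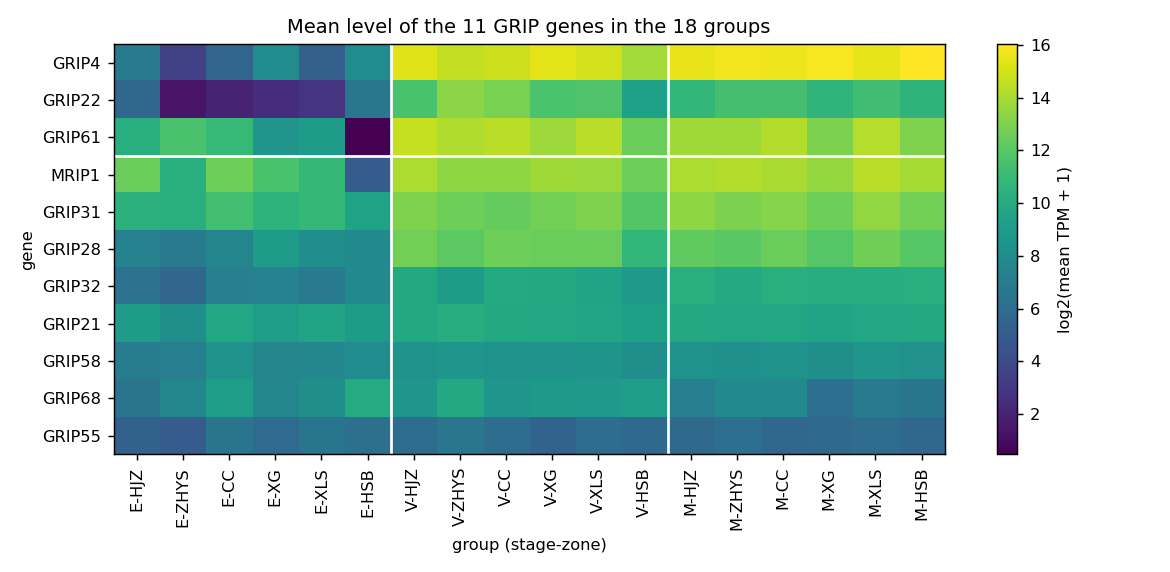
Mean level of the 11 GRIP genes in the 18 groups as log2(mean TPM + 1), with the 3 described genes on top and white lines between stages. GRIP4, GRIP22, GRIP61, MRIP1, GRIP28, GRIP31 and GRIP32 are brighter at V and M than at E, GRIP61 and MRIP1 are darkest in E-HSB, and GRIP68 darkens from V to M.

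Of 5 thaumatin-like and chitinase genes found by symbol, defense-related proteins that ripe grapes hold in quantity, 3 rose from E to V and 1 fell. Of all genes 5.89% rose and 7.36% fell. The median difference was 4.59, against -0.02 over all genes. The rises were 6.97 for TL1, 5.69 for CHI4D and 4.59 for TL3. CHIT3 fell by 2.13, and CHI4C (0.87) was not called. From V to M none of the 5 was called as a mean of the zones (median 0.03), beside 1.69% of all genes that rose and 1.81% that fell. In HSB the differences were 2.55 for CHI4D, 2.27 for TL1 and 2.18 for TL3, whereas in the other 5 zones these 3 genes had differences below 0. The other two of the list did not share this pattern: CHIT3 had -1.12 in HSB and 0.01 to 0.56 elsewhere, and CHI4C had 1.49 in HSB, 2.72 in XG and -0.54 in XLS. TL1 had a mean of 26170 TPM at V and 18009 TPM at M over the zones, above GRIP61 and below GRIP4 at both stages.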

How the data were processed

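Flesh RNA from 18 groups (3 stages in 6 zones, 3 biological replicates each, 54 libraries) was used, with each library assigned to its group by its label. The authors aligned clean reads with HISAT2, counted fragments with featureCounts and deposited TPM rounded to 2 decimals, with replicates kept separate. The study links an Ensembl Plants grapevine annotation, the deposited gene numbers are NCBI's, and neither names the build. Library totals lay between 999998.9 and 1000001 TPM, so sequencing depth is unknown and precision comes only from the spread between replicates. The table holds 25133 genes, and 23256 of their numbers were matched to RefSeq (assembly ASM3070453v1), which gave symbols and gene order. From 3301 to 5247 genes were at 0 in a library, and within a group at most 0.73% of the values of a pair of libraries were identical.

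In R 4.3.3, limma 3.58.1 was fitted to log2(TPM + 1) of all libraries, with a mean for each of the 18 groups, 36 residual degrees of freedom, a variance trend and Benjamini-Hochberg adjustment over all genes, and no filter. A call needed an adjusted p below 0.05 and an absolute log2 difference above 1, and for F-tests the adjusted p alone. The study's count-based test could not be run on TPM. The fit was tested on simulated data. The 3 genes, the lists and the alternatives were chosen with earlier results of these data known. The genes named were the 3, the 5 most correlated with each over the group means, the most abundant gene of each group and the listed genes. Chitinases and thaumatin-like genes were found by symbol. Lists that needed gene descriptions (cell wall, proline-rich and kiwellin genes, seed markers), protein alignments and promoter motifs were not analysed here. Alternatives were a constant of 0.1, genes with a mean of at least 1 TPM, median-of-ratios factors, quantile normalization, totals without the 3 genes, a replicate block, each library left out, zone means in place of libraries, only the groups compared, and the fit without HSB. The fit without XLS, the correlations without E-HSB and the E to V ratios without single libraries were added after seeing the data. Python 3.11.15 with numpy 2.4.6 and pandas 2.3.3 gave the other values, and matplotlib 3.10.9 the figures.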

Additional observations from a re-analysis of the deposited data

Results flagged for a closer look

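The V to M difference of the 3 genes differed among the zones in a test of the difference itself, by a range on log2(TPM + 1) of 1.98 for GRIP4 (limma F-test, adjusted p = 0.00028), 3.19 for GRIP22 (adjusted p = 4.84e-07) and 1.42 for GRIP61 (adjusted p = 0.000487). In HSB all 3 genes were, as TPM, higher at M than at V, with no overlap between the 3 V and the 3 M libraries, and in the other zones only GRIP4 had a higher mean at M. After quantile normalization, which keeps only ranks, the HSB difference of GRIP61 was -0.19. By group mean GRIP61 ranked 12 at V and 15 at M there. HSB was also the zone with the lowest level of each gene at V (15139 TPM for GRIP4, 661 TPM for GRIP22 and 5864 TPM for GRIP61) and the one in which 23.9% of all genes were called between V and M.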

How the results depend on the processing

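Leaving out HSB had the widest effect. Without it the mean E to V difference was 9.2 for GRIP4, 9.34 for GRIP22 and 4.26 for GRIP61, and the V to M difference of GRIP22 was -1.07. The range among zones of the V to M difference was then 0.98 for GRIP4 and 0.84 for GRIP61, that of GRIP4 at V was 0.75 and that of GRIP22 at M was 0.82, none of which passed. With 0.1 as the constant the GRIP61 mean E to V difference was 5.86 and the GRIP22 range at M (0.86) did not pass. With only the compared groups the GRIP4 range at V (1.49) did not pass, and after median-of-ratios scaling its range at M (0.92) did. The cause was not tested. Leaving out each of the 54 libraries in turn changed none of the calls on means and ranges over the zones. The mean V to M difference then ran from 0.87 to 0.95 for GRIP4, -0.73 to -0.58 for GRIP22 and -0.34 to -0.28 for GRIP61. No result changed sign with a call under any alternative.

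The replicate numbers were not used as pairs, because same-numbered replicates of different groups did not all deviate together. Their r ran from -0.446 to 0.522 (median 0.01, over 459 pairs, with 112 above 0.1). For pairs with different numbers r ran from -0.605 to 0.523 (median -0.01, over 918 pairs, with 163 above 0.1). As a hint from the data, 32 of 54 libraries lay closest on average to their own number, where an equal split over 3 numbers would give 18. With the replicate number as a block no call on the 3 genes changed, and the range of the V to M difference kept adjusted p values of 0.000279 for GRIP4 and 8.49e-07 for GRIP22 in limma.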

Other observations

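GRIP61 and MRIP1 were low in E-HSB while GRIP4 and GRIP22 had their highest E levels there. The libraries of E-HSB held 0.14 to 0.87 TPM of GRIP61 and 25.0 to 40.0 TPM of MRIP1, against 201 to 303 TPM of GRIP4 and 76.3 to 127 TPM of GRIP22. TL1 was low in E-HSB as well, at 10.1 ± 2.47 TPM (SD, n = 3), and its means in the other zones at E ran from 67.7 to 690 TPM. GRIP68 went the other way, with 1071 ± 109 TPM in E-HSB and means of 85.6 to 574 TPM in the other zones.

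In E-HJZ, replicate 2 held the lowest value of all 3 genes (61.9 TPM of GRIP4, 32.7 TPM of GRIP22 and 832 TPM of GRIP61). In V-XLS, replicate 2 held the lowest GRIP4 value of its group (22450 TPM) and the highest GRIP22 (6161 TPM) and GRIP61 values (28054 TPM).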
